A study of Mus musculus with 4 samples.

Results

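The integrin, laminin and matrix glycoprotein genes of mouse 3T3 cells were compared between control cells and cells given recombinant LTα1β2, a TNF superfamily cytokine made of lymphotoxin α and β chains that acts through the lymphotoxin β receptor. The genes were chosen by symbol and not by their values: all integrin α and β subunit genes (Itga, Itgb), all laminin chain genes (Lama, Lamb, Lamc), and a set of basement membrane linkers, fibronectin and other glycoproteins, elastic fibre genes and latent TGF-β binding proteins. Of 59 such symbols in the annotation, 40 were among the 12208 genes of the expression table, and the other 19 were not analysed here. The 40 comprised 12 integrin α and 6 integrin β subunits, 5 laminin chains, 3 basement membrane linkers, 6 fibronectin-type and matricellular glycoproteins, 5 elastic fibre genes and 3 latent TGF-β binding proteins. Itgbl1, whose product resembles a β subunit but is not an integrin chain, was not counted.

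There were 4 groups of 1 library each: control cells at 24 h, control cells at 48 h, LTα1β2-treated cells at 24 h and LTα1β2-treated cells at 48 h. All were 3T3, which the labels call a pre-osteoblast cell line. No genetic change is named for any group, and the sources used here give neither the dose of LTα1β2 nor what the controls received. Whether the libraries stem from separate cultures is not stated in the labels. With 1 library a group, the p-values rest on how far the 24 h and 48 h differences lie apart. They may not measure the spread between cultures.

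Integrins are cell surface receptors built from an α and a β subunit that bind matrix proteins outside the cell and link them to the actin cytoskeleton inside it. Laminins are trimers of an α, a β and a γ chain that form basement membranes together with nidogens, perlecan and agrin. Fibronectin and the fibrillins form extracellular fibrils that osteoblast-lineage cells and fibroblasts deposit early, onto which collagens, fibulins and the latent TGF-β complexes are laid.

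The reads recovered from the table numbered 15995777 and 13097396 in the control libraries and 14986101 and 11355974 in the treated libraries; here and below a pair of values is for 24 h and then 48 h. The treated 48 h library stood apart in its read-weighted median transcript length, which was 2847 bases against 3320 to 3403 bases in the others. This bears on these genes because their transcripts were long, with a median of 5784 bases against 3084 over all tested genes, and 38 of the 40 were longer than that median. Most counts and medians of the set at 48 h are therefore also given with each library's trend over transcript length removed. So are the 48 h log2 folds of the genes that fell. The lymphotoxin β receptor gene Ltbr was at 156 and 150 CPM (counts per 1000000 reads) in control and at 151 and 130 CPM after treatment. Of the osteoblast markers, Runx2 (67.5 to 126 CPM), Sp7 (7.93 to 35.1 CPM) and Col1a1 (7356 to 15684 CPM) were present in every library, while Alpl and Ibsp were not among the listed genes. Of 6 endothelial and 6 epithelial markers 1 and 0 were listed, the former Vwf at 2.98 to 3.8 CPM. Of 8 leukocyte markers 3 were listed, with summed levels of 65.1 and 75.4 CPM in controls against 57.4 and 85.9 CPM after treatment, nearly all from Lyz2, while Ptprc was not listed. Some genes of the other marker lists fell with the set in the limma fit given below. Over all tested genes 2.27% fell and 2.92% rose in it. Of 7 listed osteoblast markers 4 fell and 0 rose, while Spp1 (osteopontin) had ratios of 1.16 (1.14 to 1.18) and 1.45 (1.42 to 1.48) and did not pass. Bglap (1.13 to 1.33 CPM) and Bglap2 (2.99 to 4.25 CPM) did not pass either. Of 3 listed smooth muscle and pericyte markers 2 fell (Acta2 and Cspg4), and the 3 summed to 1105 and 1083 CPM in controls and 720 and 705 CPM after treatment. Of 7 listed fibroblast markers 2 fell and 1 rose. Of 5 adipocyte markers 1 was listed, Fabp4, which rose from 1.94 and 1.45 CPM to 2.40 and 6.69 CPM. These values are 31, 19, 36 and 76 reads. The ratios were 1.24 (0.745 to 2.07) and 4.61 (2.76 to 8.08). The rise of Fabp4 did not pass once each gene's own spread was let into the fit, as described below. The part of the marker genes in the results below was not tested. In bulk RNA fewer cells of a type and less RNA per cell cannot be told apart.

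Taken by level per length, fibronectin led the set by a wide margin and the integrin subunits ran over 3 orders of magnitude. Levels per length are CPM per kilobase of transcript, averaged over the 4 libraries, and are the only scale on which genes are compared with each other here. Fn1 stood at 623 CPM per kilobase, Postn (periostin, a matricellular protein of bone and periosteum) at 288, and Itgb1, the shared β chain of most matrix integrins, at 277. Efemp2 (fibulin-4), Itgb5 and Thbs2 followed at 156, 138 and 105. The α subunits with the highest levels were Itga3 (45.3), Itgav (40.7) and Itga11 (39.3), and the laminin chains with the highest were Lamb1 (50.9), Lamc1 (35.4) and Lama4 (25.9). Of the basement membrane linkers Hspg2 stood at 41.0, Nid2 at 32.1 and Agrn at 12.5, and of the latent TGF-β binding proteins Ltbp3 at 56.5, Ltbp1 at 37.9 and Ltbp4 at 1.52. Itgb4 and Itga2 were the lowest, at 0.238 and 0.205. The plot of levels per length shows that neighbours in this order often overlapped over the 4 libraries, as Itga3, Hspg2, Itgav and Itga11 did.

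**Figure D1:**
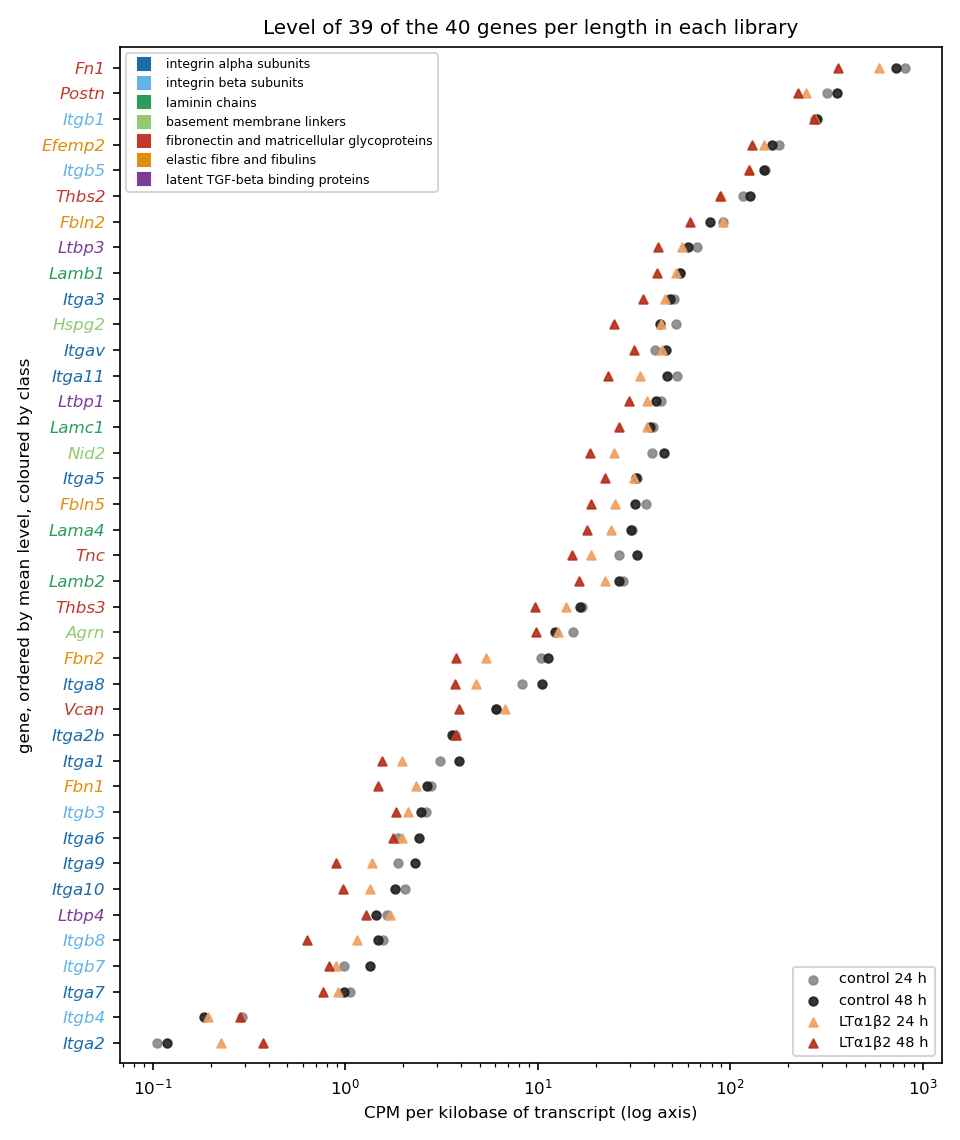
CPM per kilobase of transcript (log axis) of 39 of the 40 genes in each of the 4 libraries, ordered by mean level, with circles for control and triangles for LTα1β2-treated cells. Fn1 leads at a mean of 623 and Itga2 is lowest at 0.205. For most genes the treated 48 h library (dark triangle) lies furthest left, and for Itga2 it lies furthest right.

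As a whole the set was lower in treated cells. The 40 genes together took 1.53% and 1.46% of reads in control at 24 h and 48 h, against 1.23% and 0.899% in treated cells. Fn1 alone made up a large part of this, and without it the summed CPM went 8611 to 7325 in the 24 h pair and 8565 to 5970 in the 48 h pair. In 30 of the 40 genes (75%) the treated value was below control at both times, where 33.2% of all 12160 tested genes were. In 3 genes, Itga2 and Itga2b among them, it was above control at both times, against 28.8% of all tested genes. In 7 of the 40 the 2 times differed in sign, where 4614 of all 12160 tested genes did. The median log2 fold of the set was -0.27 at 24 h and -0.54 at 48 h, beside 0.02 and -0.09 over all tested genes. With the length trend removed the medians were -0.26 and -0.39, beside 0.02 and -0.10, and again 30 of 40 were lower at both times, where 36.3% of all tested genes were.

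Treatment was tested across both times in an additive limma fit over all tested genes, in which the 24 h and 48 h pairs serve as the repeats. There 12 of the 40 genes fell and 1 rose, where 2.27% of all tested genes fell, 2.92% rose and 5.19% did either (adjusted p below 0.05, limma with Benjamini-Hochberg adjustment). Those that fell were the integrin subunits Itga1, Itga8, Itga9, Itga10, Itga11 and Itgb8, the laminin chain Lama4, the nidogen Nid2, the fibril proteins Fn1, Fbn2 and Fbln5, and the matricellular Tnc. The gene that rose was Itga2. All 12 also fell with the length trend removed, where 15 of the 40 and 3.9% of all genes fell. Prior degrees of freedom came out infinite, so the spread was that of genes of like level. Set at 9.86, which lets in each gene's own spread, they left 2 falls, Fbn2 and Itga8, against 0.206% of all genes, and 7 once the length trend was also removed, against 0.757%. Median-of-ratios rescaling of the columns, whose fit estimated 9.86 prior degrees of freedom, gave 7 falls, against 0.691% of all genes. The same rescaling with infinite prior degrees of freedom gave 15, against 3.77%. Leaving out 1 library also drops the time term and leaves 1 arm with a single library, which is then assumed to vary like the other arm's pair, so these fits are no replicated test of the arm reduced. Without the treated 48 h library 12 genes fell, 8 of them among the 12 named, against 3.04% of all genes; without the treated 24 h library 30 fell, where 3063 of all tested genes did. Without the 24 h control only Fbn2 fell, and without the 48 h control 0 did, where all genes gave 8 and 6 falls.

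**Figure D2:**
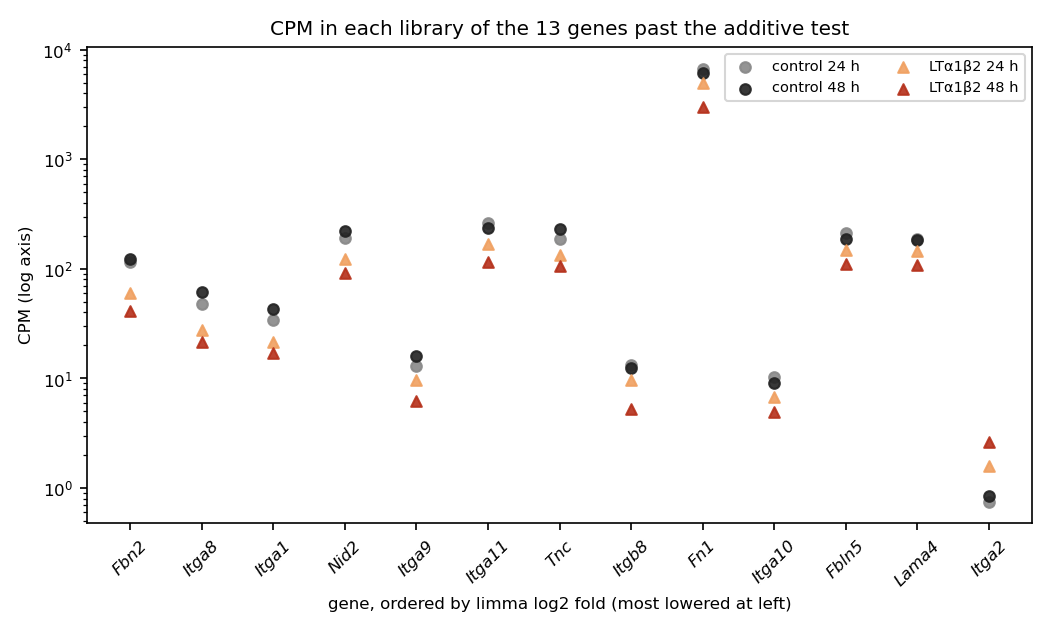
CPM (log axis) in each of the 4 libraries for the 13 genes past the additive test, ordered by limma log2 fold, with circles for control and triangles for LTα1β2-treated cells. In the 12 genes at the left both treated libraries lie below both control libraries, and in Itga2 both lie above. The treated 48 h library lies below the treated 24 h library in all 12.

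At each time alone there was 1 library a group and no test, so genes were counted by size. At 24 h none of the 40 genes was 2-fold lower or higher on the log2(CPM + 1) scale, where 0.181% and 0.345% of all tested genes were. At 48 h 9 were at least 2-fold lower (Fbn2, Fn1, Itga1, Itga8, Itga9, Itga11, Itgb8, Nid2 and Tnc), against 0.715% of all tested genes, and 0 were 2-fold higher, against 1.86%. With the length trend removed 4 of the 9 remained, Fbn2, Itga8, Itga9 and Nid2, against 0.798% of all genes. At 1.5-fold, 5 genes were lower and 0 higher at 24 h, against 1.35% and 1.48% of all tested genes, and 18 lower and 2 higher at 48 h, against 6.28% and 7.39%. Removal of the length trend left 13 genes 1.5-fold lower at 48 h, against 6.89%. The same 5 (Fbn2, Itga1, Itga8, Itga11 and Nid2) were lower at both times, where 0.806% of all tested genes were, and so they were with the length trend removed, against 0.847%. The ratios at both times, with counting intervals, are in the plot of ratios. Intervals printed below are exact 95% intervals of the CPM ratio that cover counting error only, and not the difference between cultures.

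**Figure D3:**
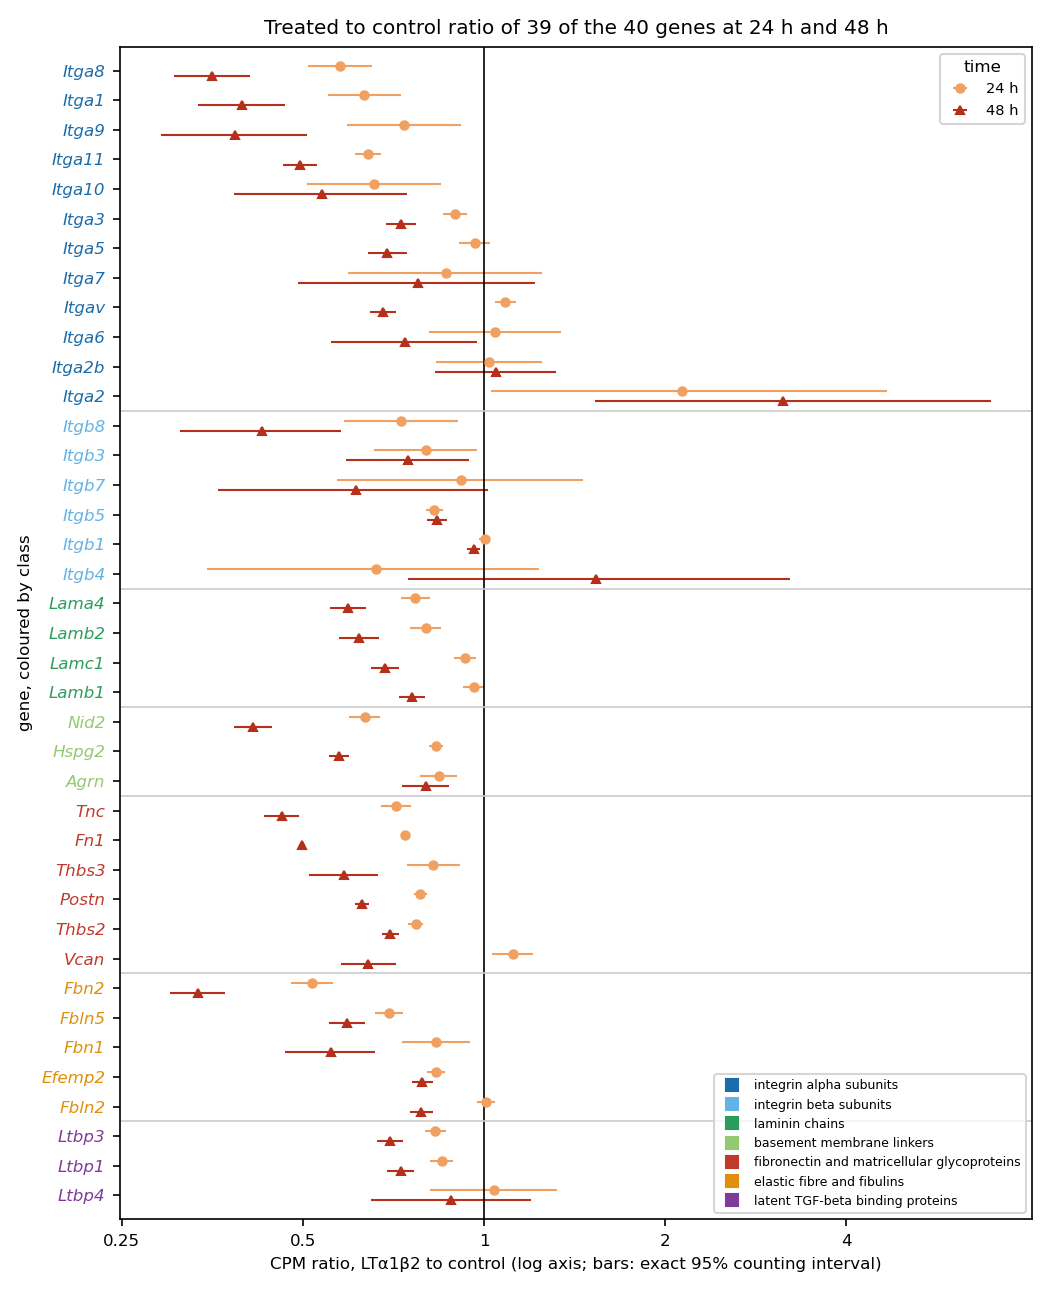
Ratio of CPM in LTα1β2-treated to control cells (log axis) for 39 of the 40 genes, grouped by class, with circles for 24 h and triangles for 48 h; bars are exact 95% counting intervals and the line marks a ratio of 1. The 48 h ratio lies below the 24 h ratio in most genes, and Itga8 at 48 h is at 0.353. Itgb1 sits close to 1 at both times.

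Of 12 integrin α subunits 5 fell and 1 rose, and these 6 were the 4 collagen-binding chains together with Itga8 and Itga9. Itga8, whose product pairs with β1 and binds nephronectin and other RGD proteins, was at 48.1 and 61.1 CPM in control. After treatment it was at 27.8 and 21.6 CPM. Both treated values lay below both controls. The ratio was 0.577 at 24 h (0.511 to 0.651) and 0.353 at 48 h (0.305 to 0.408), and the gene fell with a limma log2 fold of -1.12 ± 0.17 SE (adjusted p = 4.52e-08, limma). It also fell with 9.86 prior degrees of freedom (adjusted p = 0.0343, limma), and its 48 h log2 fold was -1.46, or -1.30 with the length trend removed.

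Itga1, the α chain of the collagen receptor α1β1, went from 34.0 to 21.5 CPM in the 24 h pair (0.633, 0.550 to 0.728) and 43.0 to 17 CPM in the 48 h pair (0.395, 0.334 to 0.466). The limma log2 fold was -0.96 ± 0.18 SE (adjusted p = 1.02e-05). Itga11, the α chain of the fibrillar collagen receptor of mesenchymal cells, went from 262 to 168 CPM in the 24 h pair (0.642, 0.611 to 0.675) and 234 to 116 CPM in the 48 h pair (0.495, 0.464 to 0.528; limma log2 fold -0.82 ± 0.17 SE, adjusted p = 0.000171). For Itga1 and Itga11 alike the treated libraries were below both controls. The 48 h log2 folds moved from -1.29 to -0.99 for Itga1 and from -1.01 to -0.89 for Itga11 with the length trend removed. The third collagen-binding chain, Itga10, known from chondrocytes, fell from a low level, at 10.3 and 9.16 CPM in controls against 6.74 and 4.93 CPM after treatment (limma adjusted p = 0.0277). Its ratios of 0.657 (0.508 to 0.847) and 0.538 (0.385 to 0.745) rest on 56 to 164 reads a library, and without the treated 48 h library it did not pass (adjusted p = 0.23, limma). Its 48 h log2 fold was -0.78, or -0.65 with the length trend removed.

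Itga2, the fourth collagen-binding chain, moved the other way. It was the only one of the 40 genes to rise, from 0.750 and 0.840 CPM in control to 1.60 and 2.64 CPM after treatment. These values are 12, 11, 24 and 30 reads, and 12 was the lowest number listed for any gene in the 24 h control. Both control values lay below the 1 CPM that the fit asked of a gene's mean. Itga2 entered the fit, at a mean of 1.46 CPM, only through its higher treated values. With no filter it was also called (adjusted p = 0.0288, limma). The ratios were 2.13 (1.03 to 4.68) and 3.15 (1.53 to 6.96), and the limma log2 fold was 0.78 ± 0.25 SE (adjusted p = 0.0356). The call was lost without the treated 48 h library (adjusted p = 0.431, limma), with a pseudocount of 5 (0.0591) and at 9.86 prior degrees of freedom (0.242). In the GENCODE M21 annotation of GRCm38 (the authors' build is not known here), Itga2 (chromosome 13, 114833081 to 114932100) and Itga1 (114953096 to 115101964) are neighbours on the minus strand, 20995 bases apart with 0 listed genes between them. Pelo lies within Itga1 on the same strand and shares no exon with it in that annotation.

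The 250 bases before the RefSeq start sites of these α chain genes (GRCm38.p6) are printed because Itga1, Itga8 and Itga11 were 1.5-fold lower at both times and Itga2 was the chain that rose. Capitals mark matches to a loose κB-like motif (GGG, any 5 bases, then CC), read on either strand.
Itga1, chr13:115101965-115102214, minus strand: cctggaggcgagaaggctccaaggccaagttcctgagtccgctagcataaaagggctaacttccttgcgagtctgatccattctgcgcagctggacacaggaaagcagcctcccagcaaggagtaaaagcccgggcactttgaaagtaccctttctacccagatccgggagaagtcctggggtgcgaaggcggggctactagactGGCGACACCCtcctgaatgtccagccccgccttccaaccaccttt
Itga2, chr13:114932101-114932350, minus strand: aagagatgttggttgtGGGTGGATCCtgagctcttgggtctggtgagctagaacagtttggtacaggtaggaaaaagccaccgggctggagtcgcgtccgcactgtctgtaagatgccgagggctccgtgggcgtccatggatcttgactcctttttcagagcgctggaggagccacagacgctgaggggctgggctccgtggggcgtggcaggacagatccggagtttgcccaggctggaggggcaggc
Itga8, chr2:12301945-12302194, minus strand: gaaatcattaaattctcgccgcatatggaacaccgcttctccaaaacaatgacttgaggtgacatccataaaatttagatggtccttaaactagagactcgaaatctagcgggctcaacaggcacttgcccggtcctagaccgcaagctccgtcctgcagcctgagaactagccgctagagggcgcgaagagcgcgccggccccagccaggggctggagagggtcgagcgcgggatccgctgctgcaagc
Itga11, chr9:62677605-62677854, plus strand: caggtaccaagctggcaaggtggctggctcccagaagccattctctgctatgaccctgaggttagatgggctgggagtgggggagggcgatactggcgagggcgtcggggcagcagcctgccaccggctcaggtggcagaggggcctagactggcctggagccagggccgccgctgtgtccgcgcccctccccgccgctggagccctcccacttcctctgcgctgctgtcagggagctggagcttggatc
The motif is common, being present in 45.8% of the 32851 RefSeq promoter windows of this length, and it was present once each in those of Itga1 and Itga2 and not in those of Itga8 and Itga11. Windows were found for 30 of the 40 genes, 8 of the 12 that fell among them, and 21 of the 30 and 4 of the 8 held the motif. The 30 genes had 40 windows, of which 28 (70%) held it, and the difference from all windows was not tested. Shares of all windows count windows and not genes. The AP-1 motif TGANTCA, searched on both strands, was in 0 of the windows of the 30 genes and in 6.75% of all windows. The GC box GGGCGG was in those of 15 of the 30 genes (22 of 40 windows, 55%) and 2 of the 8 that fell, and in 32.7% of all windows. The TEAD motif CATTCC was in those of 2 of the 30 genes (2 of 40 windows, 5%) and 1 of the 8 that fell, and in 12.6% of all windows. Matches of the first motif and of the GC box can overlap, and the window of Itga11 runs past the start of its GENCODE gene.

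Itga9, whose product pairs with β1 and binds tenascin-C among other ligands, was at 13.1 and 16.2 CPM in controls against 9.68 and 6.25 CPM after treatment. Its ratios were 0.737 (0.592 to 0.915) and 0.386 (0.291 to 0.508), with a limma log2 fold of -0.82 ± 0.19 SE (adjusted p = 0.00141; 0.0649 without the treated 48 h library). The 48 h log2 fold of Itga9 was -1.24, or -1.05 with the length trend removed. The α chains that did not pass the test include the widely expressed fibronectin, vitronectin and laminin receptors. Itga5, the α chain of the classical fibronectin receptor, was at 143 and 142 CPM in controls against 138 and 98 CPM after treatment, with ratios of 0.966 (0.910 to 1.03) and 0.691 (0.641 to 0.744; limma adjusted p = 0.408). Itga3, a laminin receptor chain with 250 and 236 CPM in controls, had 223 and 172 CPM after treatment (ratios 0.894 and 0.729; limma adjusted p = 0.378). Itgav, the α chain of the vitronectin receptors, was above its control at 24 h (313 against 288 CPM; 1.09, 1.04 to 1.13) and below it at 48 h (222 against 327 CPM; 0.68, 0.647 to 0.714). The low-level chains Itga6, Itga7 and Itga2b, at 3.08 to 13 CPM, had ratios from 0.738 to 1.05, and the interval of each included 1 other than that of Itga6 at 48 h (0.738, 0.557 to 0.973).

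Of 6 integrin β subunits 1 fell and 0 rose. Itgb1, the β partner of α1, α8, α9, α10 and α11, was at 1054 and 1077 CPM in controls against 1057 and 1036 CPM after treatment. Its ratios were 1.00 (0.981 to 1.02) at 24 h and 0.962 (0.938 to 0.986) at 48 h, and with the length trend removed its log2 folds were 0.00 and -0.01. Itgb8, which pairs with αv and takes part in the release of latent TGF-β, was at 13.2 and 12.4 CPM in controls against 9.61 and 5.28 CPM after treatment. Its ratios were 0.728 (0.585 to 0.905) and 0.427 (0.312 to 0.578; limma log2 fold -0.75 ± 0.20 SE, adjusted p = 0.00526). Without the treated 48 h library Itgb8 did not pass (adjusted p = 0.335, limma), and its 48 h log2 fold of -1.09 became -0.85 with the length trend removed.

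The other β chains did not pass the test. Itgb5, a partner of αv, was at 499 and 492 CPM in controls against 413 and 411 CPM after treatment, with nearly equal ratios of 0.827 and 0.835 (limma adjusted p = 0.501). Itgb3, the β chain of the osteoclast and platelet receptors, had 15.3 and 14.3 CPM in controls and 12.2 and 10.7 CPM after treatment (ratios 0.801 and 0.746; limma adjusted p = 0.367). Itgb7 and Itgb4, at 1.15 to 3.59 CPM, had intervals that included 1 at both times, and Itgb4 had 29 and 15 reads in controls and 18 and 20 after treatment.

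Of 5 laminin chains 1 fell and 0 rose. Lama4, the α chain of the laminins of mesenchymal and vascular basement membranes, was at 188 and 184 CPM in controls against 144 and 109 CPM after treatment. The ratios were 0.769 (0.728 to 0.813) and 0.595 (0.555 to 0.637), and the limma log2 fold was -0.56 ± 0.17 SE (adjusted p = 0.0243, and 0.229 with 9.86 prior degrees of freedom). Its 48 h log2 fold was -0.74, or -0.58 with the length trend removed. Lama4 was the only laminin α chain analysed, and Lamb1, Lamb2 and Lamc1, with which it forms trimers, were lower to differing degrees. Lamb2 was at 157 and 149 CPM in controls against 126 and 92.5 CPM after treatment (ratios 0.80 and 0.62, limma adjusted p = 0.0563). With the length trend removed its limma adjusted p was 0.0101, or 0.125 when 9.86 prior degrees of freedom were set as well. Lamb1 went from 316 to 304 CPM and from 317 to 240 CPM (ratios 0.962 and 0.759; limma adjusted p = 0.587). Lamc1 went from 304 to 283 CPM and from 293 to 200.2 CPM (ratios 0.931 and 0.684; limma adjusted p = 0.342).

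Among the basement membrane linkers Nid2, which encodes nidogen-2, a bridge between laminin and type IV collagen networks, fell. It was at 192 and 222 CPM in controls against 122 and 91.5 CPM after treatment. Its ratios were 0.633 (0.597 to 0.671) and 0.413 (0.384 to 0.443), with a limma log2 fold of -0.96 ± 0.17 SE (adjusted p = 2.69e-06). Its 48 h log2 fold was -1.27, or -1.15 with the length trend removed. Of the exon bases of Nid2, 8.45% are shared with Rtraf on the opposite strand, and whether the counting used the strand is not given in the sources used here. Hspg2, which encodes the heparan sulphate proteoglycan perlecan, was at 744 and 613 CPM in controls against 619 and 352 CPM after treatment. Its ratios of 0.832 and 0.574 did not pass (limma adjusted p = 0.0591). Its transcript, at 14187 bases, was the longest of the set, and its 48 h log2 fold moved from -0.80 to -0.46 with the length trend removed. Agrn, encoding the proteoglycan agrin, had 110 and 89.1 CPM in controls and 92.7 and 71.3 CPM after treatment. Its ratios were 0.841 and 0.801, and its 48 h log2 fold went from -0.32 to -0.11 with that trend removed (limma adjusted p = 0.427).

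Of 6 fibronectin-type and matricellular genes, Fn1 and Tnc fell and 0 rose. Fibronectin was the most abundant transcript of the set. Fn1 was at 6702 and 6054 CPM in controls against 4952 and 3016 CPM after treatment, the treated values both below the controls. The ratios were 0.739 (0.732 to 0.746) and 0.498 (0.492 to 0.505), on 34255 to 107204 reads a library, so that counting error was small beside the difference. The limma log2 fold was -0.72 ± 0.23 SE (adjusted p = 0.0331), with 24 h and 48 h log2 folds of -0.44 and -1.0, or -0.43 and -0.77 with the length trend removed. Fn1 did not pass without the treated 48 h library (adjusted p = 0.228, limma), with median-of-ratios rescaling (0.286, and 0.147 with infinite prior degrees of freedom) or with 9.86 prior degrees of freedom (0.258).

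Tnc, encoding the anti-adhesive matricellular protein tenascin-C, was at 188 and 232 CPM in controls against 134 and 107 CPM after treatment. The ratios were 0.714 (0.674 to 0.755) and 0.461 (0.431 to 0.493), and the limma log2 fold was -0.80 ± 0.17 SE (adjusted p = 0.000275). Its 48 h log2 fold was -1.11, or -0.91 with the length trend removed. Tnc fell, as did Itga9, a receptor chain for its product. Postn was at 1016 and 1152 CPM in controls against 797 and 723 CPM after treatment, with ratios of 0.784 and 0.627. It did not pass (limma adjusted p = 0.0913), but passed with the length trend removed (0.00374). Its transcript has 3205 bases.

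The thrombospondins Thbs2 and Thbs3 did not pass either. Thbs2, an inhibitor of blood vessel growth, had 684 and 745 CPM in controls and 527 and 520 CPM after treatment (ratios 0.77 and 0.698; limma adjusted p = 0.149). Thbs3, a thrombospondin of cartilage and bone matrix, had ratios of 0.824 and 0.584 (limma adjusted p = 0.0531; 0.00429 with the length trend removed). Vcan, the large hyaluronan-binding proteoglycan versican, was at 75.6 and 75.4 CPM in controls against 84.4 and 48.4 CPM after treatment. It was above control at 24 h (1.12, 1.03 to 1.21) and below it at 48 h (0.643, 0.578 to 0.714), and with the length trend removed its log2 folds were 0.17 and -0.31.

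Of 5 elastic fibre genes, Fbn2 and Fbln5 fell and 0 rose. Fbn2, encoding fibrillin-2, a microfibril protein of developing tissue and of the bone matrix, was at 115 and 124 CPM in controls against 59.7 and 41.5 CPM after treatment. Its ratios were 0.517 (0.477 to 0.561) and 0.334 (0.301 to 0.370), and its limma log2 fold of -1.25 ± 0.17 SE was the lowest of the 40 (adjusted p = 8.92e-11, and 0.0159 with 9.86 prior degrees of freedom). Fbn1, encoding fibrillin-1, was at 33.5 and 31.7 CPM in controls against 27.9 and 17.6 CPM after treatment, with ratios of 0.832 and 0.556 (limma adjusted p = 0.0503). The transcripts of both fibrillins are long, at 11041 and 11971 bases for Fbn2 and Fbn1. With the length trend removed the log2 folds were -0.92 and -1.26 for Fbn2 (-0.94 and -1.56 as deposited) and -0.24 and -0.50 for Fbn1.

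Fbln5, encoding fibulin-5, which binds elastin and integrins, fell from 212 to 147 CPM in the 24 h pair (0.696, 0.659 to 0.734) and 186 to 110 CPM in the 48 h pair (0.593, 0.554 to 0.635). Its limma log2 fold was -0.63 ± 0.17 SE (adjusted p = 0.00714), and its 48 h log2 fold was -0.75, or -0.59 with the length trend removed. Efemp2 (fibulin-4), needed for elastic fibre assembly, had 473 and 432 CPM in controls and 393 and 341 CPM after treatment (ratios 0.831 and 0.79; limma adjusted p = 0.409). Fbln2 (fibulin-2) was at 437 and 441 CPM at 24 h, a ratio of 1.01, and at 376 and 296 CPM at 48 h, a ratio of 0.787 (limma adjusted p = 0.738).

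None of the 3 latent TGF-β binding proteins, which store TGF-β in the matrix, passed the test. Ltbp1 was at 291 and 274 CPM in controls against 248 and 199 CPM after treatment (ratios 0.851 and 0.727; limma adjusted p = 0.292). Ltbp3 was at 350 and 313 CPM in controls against 290 and 218 CPM after treatment (ratios 0.83 and 0.697; adjusted p = 0.203). Ltbp4 had 8.88 and 7.79 CPM in controls and 9.21 and 6.87 CPM after treatment, with intervals that included 1 at both times. Exons of Efemp2 (4.57% of bases) and Thbs3 (6.59%) also overlap opposite-strand genes, Mus81 and Mtx1, so reads there may be uncertain.

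The log2 fold at 48 h lay below that at 24 h in 35 of 40 genes, including all 12 that fell. Over all 12160 tested genes it did so in 7491. These counts were not repeated with the length trend removed. With 1 library a group the change between the times was not tested. Across the 40 genes the 48 h log2 fold declined with transcript length (Spearman's rho = -0.41, n = 40), as it did across all tested genes (rho = -0.47, n = 12157), and with the trend removed rho was -0.18 and 0.01. At 24 h rho was -0.19 in the set and -0.03 over all genes. Genes share libraries and are not independent, so these values are descriptions. The class medians at 48 h were -0.54 for integrin α subunits, -0.32 for β subunits, -0.54 for laminins, -0.80 for basement membrane linkers, -0.71 for fibronectin and matricellular genes, -0.75 for elastic fibre genes and -0.46 for latent TGF-β binding proteins. With the length trend removed they were -0.40, -0.25, -0.33, -0.46, -0.72, -0.50 and -0.27 in the same order.

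**Figure D4:**
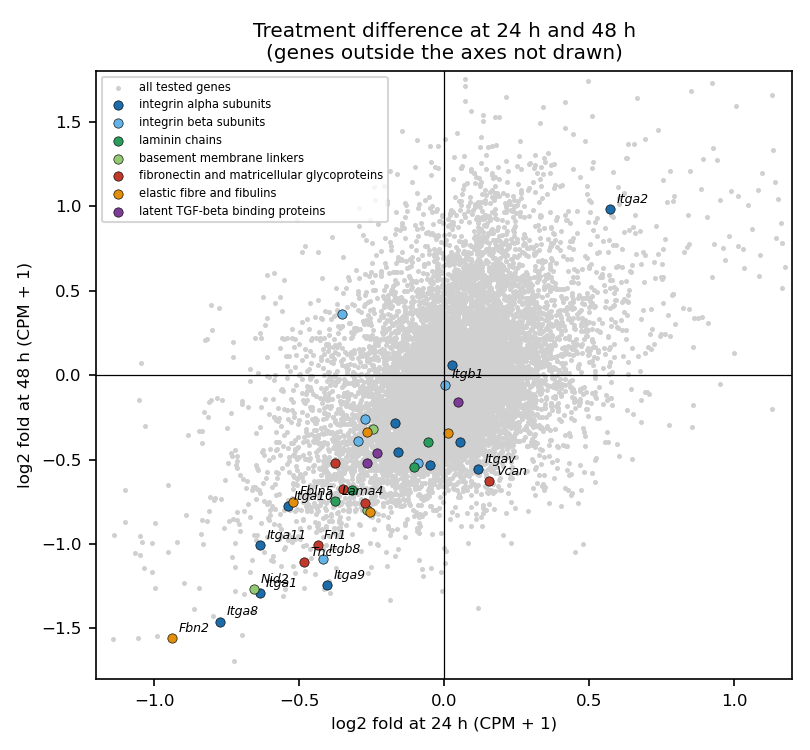
Log2 fold of LTα1β2-treated over control, on the log2(CPM + 1) scale, at 24 h (horizontal) and 48 h (vertical) for 39 of the 40 genes coloured by class, over all tested genes in grey. Of these, 30 lie below 0 on both axes, from Fbn2 at -0.94 and -1.56 upward, and Itga2 stands at the upper right at 0.57 and 0.99.

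**Figure D5:**
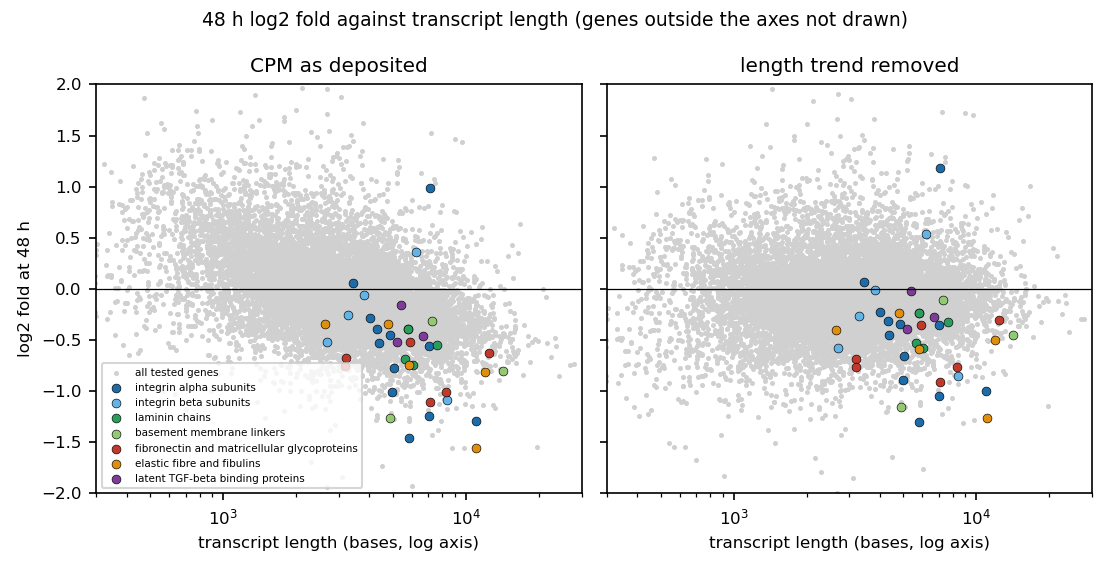
Log2 fold at 48 h against transcript length (log axis) for 39 of the 40 genes coloured by class and all tested genes in grey, from CPM as deposited (left) and with each library's length trend removed (right). The grey cloud slopes down at the left (rho = -0.47) and is level at the right (rho = 0.01), where most of the coloured genes still lie below 0.

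Between the control libraries the set moved little. From 24 h to 48 h in control, 0 of the 40 genes were 2-fold lower or higher, where 0.0247% and 0.00822% of all tested genes were. At 1.5-fold 0 were lower or higher, against 0.995% and 0.403%, and the log2 changes ran from -0.39 to 0.34 with a median of -0.05. The control change was upward in 6 of the 12 genes that fell with treatment, Fbn2, Itga1, Itga8, Itga9, Nid2 and Tnc. Over all 12160 tested genes it was upward in 5569. Tnc was 1.24 times (1.18 to 1.30), Itga8 1.27 times (1.15 to 1.40), Itga1 1.27 times (1.12 to 1.43) and Itga9 1.23 times (1.01 to 1.5) its 24 h control level at 48 h. In treated cells each of those 4 genes was lower at 48 h than at 24 h. So were 37 of the 40 genes and 7813 of all 12160 tested genes. The log2 changes in treated cells were -0.32 for Tnc, -0.35 for Itga8, -0.32 for Itga1 and -0.56 for Itga9. Removal of the length trend took these changes to -0.11, -0.19, -0.01 and -0.35. Hspg2 and Agrn were at 0.824 and 0.809 of the 24 h control at 48 h. Between the treated libraries 0 of the 40 genes were 2-fold lower or higher, where 0.428% and 1.04% of all tested genes were. Fbn1, Fn1, Hspg2, Itgb8 and Vcan were 1.5-fold lower and 0 were higher, against 6.95% and 5.58%. None of the 40 was 1.5-fold lower with the length trend removed, against 6.31% of all tested genes. The median log2 change in treated cells was -0.37 beside -0.13 over all tested genes. After median-of-ratios rescaling it was -0.25 beside -0.0008 over all tested genes. These comparisons share their control and treated libraries with the treatment comparisons.

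The intracellular and extracellular partners of these genes were read from 4 lists of genes, whose counts were not tested against those of the set. Of 25 tested genes of integrin adaptors and focal adhesions 3 fell and 0 rose (limma, 2.27% and 2.92% of all genes). They were Vcl, encoding the actin linker vinculin (194 to 138 CPM at 24 h, 251 to 133 CPM at 48 h; adjusted p = 0.0021), and the tensin genes Tns1 (adjusted p = 0.0314) and Tns2 (adjusted p = 0.0439). The list median was -0.04 at 24 h and -0.23 at 48 h. Of 15 tested non-integrin matrix receptors 1 fell, Sdc2, encoding the heparan sulphate proteoglycan syndecan-2, from 640 to 497 CPM (24 h) and 732 to 429 CPM (48 h) (limma adjusted p = 0.0377), with list medians of -0.09 and -0.43.

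Of 12 tested genes of TGF-β ligands, receptors, Smads and activators 1 fell, the activator Thbs1, from 600 to 300.1 CPM (24 h) and 590 to 245 CPM (48 h) (limma log2 fold -1.13, the list medians being 0.02 and -0.26). Of 9 tested elastic fibre assembly partners, such as the lysyl oxidases, 0 fell and 0 rose in the limma fit, with list medians of -0.10 and -0.34. Of these 9 genes, 2 had an unadjusted p below 0.05, where 16.3% of all tested genes did. With the length trend removed the 48 h list medians were -0.15 for adaptors, -0.34 for matrix receptors, -0.09 for the TGF-β list and -0.30 for elastic fibre partners. Over all tested genes the medians were 0.02 and -0.09, and -0.10 at 48 h with the trend removed. Over the 4 lists 5 of 61 genes fell, where 2.27% of all tested genes did. With the length trend removed 11 fell, against 3.9% of all genes. With 9.86 prior degrees of freedom 1 fell, against 0.206%. The list counts also moved when 1 library was left out, which leaves 1 arm with a single library and is no replicated test of that arm.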

How the data were processed

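Strand-keeping libraries from 1 µg of total RNA were sequenced as 150 bp pairs, per the labels' protocols. Aligner, counter, genome build and annotation: not given in the sources used here. The package edgeR 3.30.0 was used by the authors, per the submitters' processing notes. Expression values were deposited by the authors as CPM (counts per 1000000, each column summing to 1000000 over the 12208 listed genes). Every value was a whole multiple of the worth of 1 read within 0.01 of a read (100% of values), with lowest values of 9 to 12 reads, so genes silent in a library are not analysed here. No column was left out.

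Symbols, positions and transcript lengths (the longest basic transcript) came from GENCODE M21 (GRCm38), which may differ from the authors' build. Log2 folds are of CPM + 1, which understates changes of low genes. The fit held the 12160 genes averaging 1 CPM or more, all 40 of the set among them. Time and treatment were additive terms (limma 3.58.1 under R 4.3.3, trended, two-sided, Benjamini-Hochberg 0.05, 1 residual degree of freedom), tested on simulated data first. Its p-values reflect how far the 24 h and 48 h differences lie apart in genes of like level. "Rose" and "fell" mean past this test or the fit named. Counting intervals are exact conditional binomial 95% intervals (Clopper-Pearson) from the recovered reads; PCR copies are not independent molecules, so they cover counting error only. Length trends were removed by loess of each library's deviation from the gene mean on log2 length. The genes of the set, the 4 partner lists and the settings were chosen with earlier results of these data known. The values of 1 gene of the set, counted throughout, are not reported here. Values in each library are otherwise given for genes past the test, those 1.5-fold changed at both times or 2-fold at either, and the highest of each class per length.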

Additional observations from a re-analysis of the deposited data

Results flagged for a closer look

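By sign alone, 7 of the 40 genes differed between 24 h and 48 h, against 4614 of all 12160 tested genes. For 2 genes the treated to control ratio lay on opposite sides of 1 at 24 h and 48 h with both counting intervals clear of 1. How many of all tested genes met that rule was not counted. The ratio of Vcan, encoding versican, was 1.12 at 24 h and 0.643 at 48 h, and that of Itgav, encoding integrin αv, was 1.09 at 24 h and 0.68 at 48 h. With 1 library a group the difference between the times was not tested. With the length trend removed the directions stayed opposite, with log2 folds of 0.17 and -0.31 for Vcan and of 0.13 and -0.35 for Itgav.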

How the results depend on the processing

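The 12 genes that fell were all also called with pseudocounts of 0.25 and 5, with no filter, with a mean CPM of at least 5 and with the length trend removed; with no trend in the prior 11 were (not Lama4) and with limma voom on the recovered reads 11 (not Itga10). The count of falls was 7 with median-of-ratios rescaling (0.691% of all genes), which estimated 9.86 prior degrees of freedom. With infinite ones it was 15 (3.77%), including 11 of the 12. It was 2 with 9.86 prior degrees of freedom (0.206%) and 7 with these and the length trend removed (0.757%). With no time term it was 1, where 11 of all tested genes fell. It also moved when 1 library was left out. The count of rises, 1, was 0 with a pseudocount of 5, a mean CPM of at least 5 (a filter that removes Itga2), median-of-ratios rescaling at its 9.86 prior degrees of freedom (1 with infinite ones), no time term and 9.86 prior degrees of freedom (also with the length trend removed), and 0 to 1 when 1 library was left out. No limma log2 fold of a called gene changed sign under these settings. Over the partner lists the falls, 5, were 2 with median-of-ratios rescaling (12, and 1 rise, with infinite prior degrees of freedom), 11 with the length trend removed (2 at 9.86 prior degrees of freedom), 1 at 9.86 prior degrees of freedom, 1 with no time term, and 0 to 31 when 1 library was left out, with 0 to 2 rises. At 1.5-fold 5 genes were lower at 24 h, and 18 lower and 2 higher (Itga2 among them) at 48 h; 4 were 2-fold lower at 48 h with the length trend removed, and of the 5 genes 1.5-fold lower at 48 h than at 24 h in treated cells 0 remained. Itga2 passed 2-fold at 48 h, making 1 higher, with a pseudocount of 0.25, with median-of-ratios rescaling and with the length trend removed. The cause of these shifts was not tested. Voom, infinite prior degrees of freedom after rescaling, the combined length and prior setting, and the length trend removed at 1.5-fold were chosen after seeing the data; the edgeR test among the alternatives was not run. The additive fit pairs treated and control libraries by time, and the labels give no replicate numbers for a further block. Depth limits genes at 11 to 30 reads, such as Itga2 and Itgb4.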

Other observations

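Npnt, encoding nephronectin, a ligand of α8β1, was looked at because Itga8 fell and was chosen after its values were seen. At 24 h Npnt was at 84.6 CPM in control against 36.1 CPM after treatment, and at 48 h at 123 against 15.9 CPM, so that ligand and receptor chain were both below both controls. In control cells both were higher at 48 h than at 24 h, Npnt 1.45 times (1.35 to 1.56) and Itga8 1.27 times (1.15 to 1.40).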
